A study of Homo sapiens with 32 samples.

Results

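The comparison set 4 libraries of cells given romidepsin together with 125 nM azacitidine against 4 libraries of untreated cells, 8 of the 32 libraries of the series. Libraries were chosen by their titles and paired by cell line. The lines model 3 T-cell cancers. HH and H9 were derived from cutaneous T-cell lymphoma, TLOm1 from adult T-cell leukemia, and PF382 from acute lymphoblastic leukemia of T cells. Treated cells had 125 nM azacitidine in each line, with romidepsin at 1.25 nM in PF382 and HH and at 1 nM in TLOm1 and H9. Romidepsin was given at the start and azacitidine every 24 hours, and RNA was taken at 96 hours. Untreated cells had neither drug. There was 1 library per line and condition, so the 4 lines are the replicates (n = 4). Combination titles carry no unit, and their doses were read as nM.

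Romidepsin blocks histone deacetylases, the enzymes that take acetyl groups off histones, and acetylation at promoters goes with active transcription. Azacitidine takes the place of cytidine in new RNA and DNA and traps the DNA methyltransferases there, so that methylation is lost as cells divide. Many germline genes are kept silent by DNA methylation in other tissues, and peripheral T-cell lymphoma is a disease in which both drug classes are used.

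Total counts of the 8 libraries ran from 21470068 to 27913763, and those of all 32 from 16175077 to 32496676. A count of 3, the floor used for genes at 0, corresponded to 0.107 to 0.149 CPM (counts relative to library size, with TMM scaling between libraries). Values per line are given in the order PF382, TLOm1, HH, H9. Among T-cell markers in untreated cells, CD3E was at 564, 42, 85.8 and 229 CPM, whereas CD3D was near the floor in 1 line, at 329.5, 0.768, 33.4 and 142 CPM, and CD2 was low in H9, at 5.22, 268, 182 and 0.464 CPM. In bulk RNA, fewer cells of a kind and less RNA per cell cannot be told apart.

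After both drugs 784 genes were higher and 462 lower of 17801 tested, 4.4% and 2.6% (edgeR quasi-likelihood F test, Benjamini-Hochberg adjusted p under 0.05). At least 2-fold changes were found for 545 of the higher and 45 of the lower genes. Of the called genes 963 moved the same way in 4 of 4 lines. The calls were made from these same changes, so this agreement is partly built in, and its share over all genes is not given. A change from 0 counts to 1 also gives a line a sign. The median log2 fold change of all genes was 0.03. Fold changes are log2 values ± standard error from a fit of all 32 libraries with cell line as a term, in which libraries of 1 line count as independent. The calls rest on a spread pooled over further treatments. The 8 libraries alone gave 0 calls by edgeR, with 2336 of 14410 genes at an unadjusted p under 0.05. They gave 120 by limma-voom, chosen after seeing the 0. An unplanned edgeR fit of 16 libraries, the 8 with romidepsin alone and 125 nM azacitidine alone, gave 1375 calls. With 1 line left out there were 470 calls (HH out), 565 (PF382 out), 684 (H9 out) and 889 (TLOm1 out).

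Increases of at least 2-fold outnumbered decreases in each line, counted from 1 library against 1 with no test. PF382 had 2223 genes higher and 327 lower, TLOm1 1586 and 462, HH 1838 and 813, and H9 1038 and 453. H9 had the fewest increases. Of the genes called higher, 112 had 3 or fewer counts over the 4 untreated libraries and 40 had 0.

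Among genes higher in 4 of 4 lines, large changes came from several functions. SMPDL3B, a membrane phosphodiesterase, was at 0.0817, 0.0427, 0 and 0.0386 CPM untreated and at 0.991, 1.25, 0.199 and 1.61 CPM treated and rose by 4.48 ± 0.67 (adjusted p = 0.000473). GMPR, a guanosine monophosphate reductase, was at 0.0408, 0, 0 and 0 CPM untreated and at 0.8, 1.05, 0.199 and 0.143 CPM treated. Its counts were 1 over the untreated lines and 55 over the treated ones, a ratio of 53.6 with a 95% counting interval of 9.23 to 2160 (adjusted p = 0.00197). AKAP12, a scaffold of protein kinase A, was at 0, 0.0854, 0.131 and 0.0773 CPM untreated and at 0.267, 0.886, 3.97 and 1.43 CPM treated and rose by 4.36 ± 0.64 (adjusted p = 0.000461). All 3 were near the floor before treatment. Among decreases, GBE1, the glycogen branching enzyme, was at 93.4, 56.2, 33.5 and 51.7 CPM untreated and at 10.9, 44.5, 19.2 and 20.6 CPM treated and fell by 1.52 ± 0.36 (adjusted p = 0.0121), and TMC5, a transmembrane channel-like gene, fell by 2.80 ± 0.70 (adjusted p = 0.0173). Both calls ended without PF382 or HH, and that of GBE1 also without H9.

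Germline genes were among the largest increases. BRDT, a bromodomain protein of developing sperm, was at 0, 0.0854, 0 and 0.0773 CPM untreated and at 3.58, 0.523, 0.645 and 2.4 CPM treated. It rose by 5.13 ± 0.53 (adjusted p = 1e-05), and each treated library was above each untreated one. Of 54 tested members of a list of 72 autosomal germline genes, 10 were higher and 0 lower, beside 4.4% and 2.6% of all genes. Of the 10, 4 were higher in 4 of 4 lines. The median of the tested members was 0.99, or 0.8 with genes at 0 in untreated cells set at their lower bound. Of the 54, 6 had 0 untreated counts and passed the count filter through other libraries, so they could not be lower. TEX19, a germ-cell gene, was at 9.63, 109.5, 0.916 and 5.52 CPM untreated and at 61.5, 284, 5.86 and 27.6 CPM treated. It rose by 2.18 ± 0.36 (adjusted p = 0.00104) in each line and, unlike BRDT, was expressed before treatment. TDRD1, a Tudor-domain gene that acts with piRNAs, had 1 count over the untreated lines and 26 over the treated ones, a ratio of 25.4 (interval 4.17 to 1040). It had 0 treated counts in H9, and its call ended without PF382.

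X-linked cancer testis antigens differed by line. Of 99 in the data, 41 were tested, and 47 had 0 counts in each of the 8 libraries. Of those tested, 11 were higher and 0 lower, beside 4.4% and 2.6% of all genes. The median of the tested members was 2.52, or 1.49 with genes at 0 in untreated cells set at their lower bound. Of the 41, 18 had 0 counts in the untreated libraries and passed the count filter through other libraries, so they could not be lower, and neither the median nor the 0 lower describes all members. None of the 11 was higher in 4 of 4 lines. CTAG2, which encodes a tumour antigen, had 0, 0, 0 and 0 counts untreated and 12, 13, 91 and 0 counts treated, at least 37.7-fold higher. MAGEA1 had 0, 0, 0 and 0 counts untreated and 8, 42, 55 and 0 counts treated, at least 34.1-fold higher. Both stayed at 0 counts in H9. SSX1, a transcriptional repressor, had 0, 0, 3 and 0 counts untreated and 0, 76, 51 and 1 counts treated (ratio 41.6, interval 13.9 to 204), and its call ended without HH. Members with at least 10 counts went from 0, 1, 2 and 1 to 2, 13, 15 and 1. The number called was 2 without HH, 7 with DESeq2 and 4 with limma-voom. MAGEA, GAGE and SSX genes have near-identical copies, so reads may have been split among them.

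The BRDT promoter is shown because its gene went from near 0 in each line, with its 23 CG pairs in capitals. The window, 250 bases before to 50 after the start, is chr1:91949151-91949450 on the plus strand of RefSeq's GRCh38.p14 table. Another BRDT window there has 21 CG pairs, and the one with more pairs was taken.
BRDT: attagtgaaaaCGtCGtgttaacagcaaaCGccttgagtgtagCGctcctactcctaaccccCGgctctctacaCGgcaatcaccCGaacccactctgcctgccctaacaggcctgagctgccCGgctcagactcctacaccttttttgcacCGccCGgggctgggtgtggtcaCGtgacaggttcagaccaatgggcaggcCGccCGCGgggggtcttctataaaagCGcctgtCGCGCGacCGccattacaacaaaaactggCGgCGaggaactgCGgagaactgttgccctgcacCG
The median over all 35116 promoters of that table was 14 CG pairs, and over promoters of tested genes 23. It was 19 over the 15 promoters matched for germline genes called higher, and 13 over the 15 of the X-linked antigens. No methylation data were used here.

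**Figure D1:**
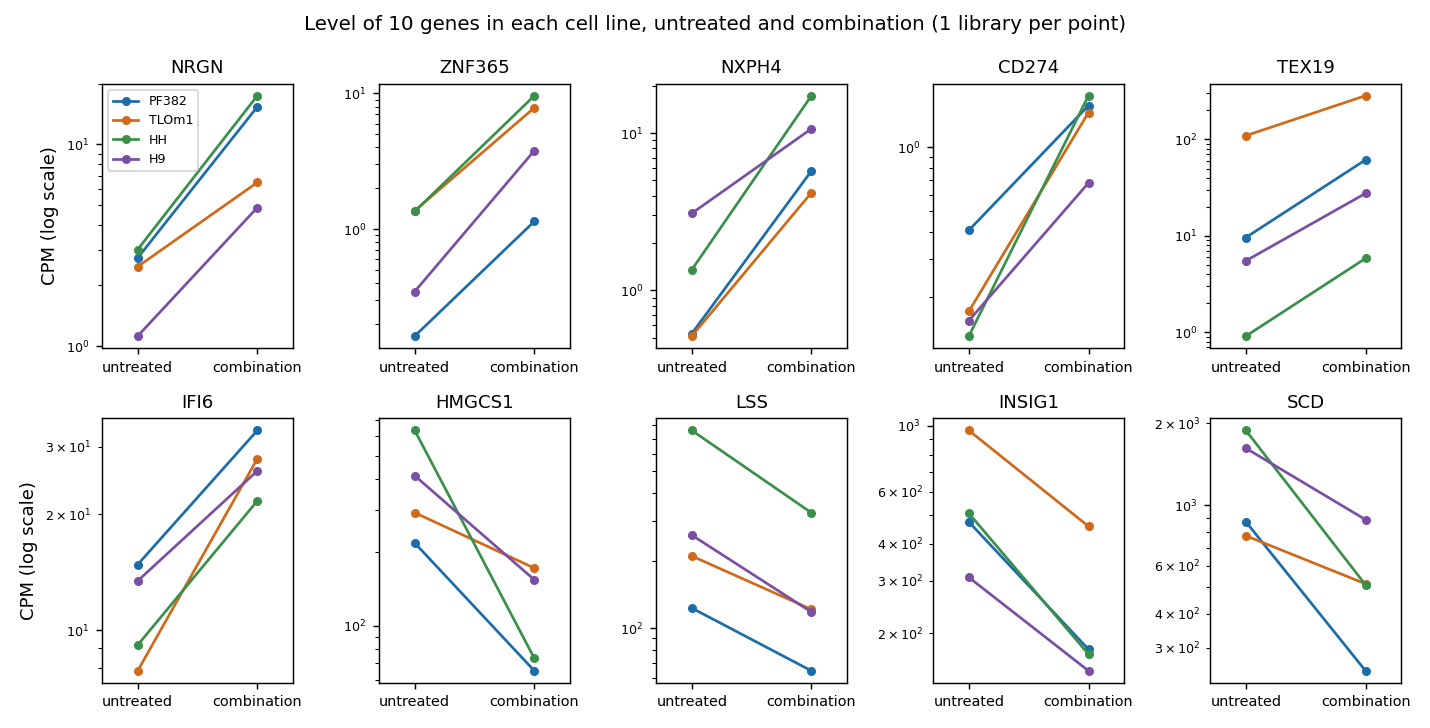
Level of 10 genes in CPM (log axis) in untreated cells and after the combination, with 1 point per library and 1 line per cell line. NRGN, ZNF365, NXPH4, CD274, TEX19 and IFI6 were higher in each line, and HMGCS1, LSS, INSIG1 and SCD lower in each.

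Genes of neurons and synapses, many of which the repressor REST keeps off in other cells, formed another group with increases. Of 66 tested members of 74, 10 were higher and 1 lower, beside 4.4% and 2.6% of all genes. Of the higher ones 7 were so in 4 of 4 lines, and the list had a median of 0.54. NRGN, which encodes the calmodulin-binding protein neurogranin, was at 2.73, 2.48, 3.01 and 1.12 CPM untreated and at 15.4, 6.48, 17.5 and 4.87 CPM treated. It rose by 2.16 ± 0.22 (adjusted p = 1e-05), and the groups did not overlap. NXPH4, a neurexophilin, was at 0.531, 0.512, 1.35 and 3.09 CPM untreated and at 5.75, 4.19, 17.3 and 10.7 CPM treated. It rose by 2.96 ± 0.32 (adjusted p = 1.13e-05), again with no overlap. MAP2, a microtubule protein of dendrites, was at 0.122, 0.299, 0.0436 and 0.154 CPM untreated and at 3.47, 4.19, 3.77 and 0.107 CPM treated, and its change was 3.92 ± 0.58 (adjusted p = 0.000461), with H9 alone not higher. NES, the intermediate filament nestin, went from 3 to 192 counts (ratio 62.4, interval 21 to 305), of which 155 were in TLOm1. The member that fell was REST, by 0.25 ± 0.07 (adjusted p = 0.0363), named after its value was seen. The list's calls were 5 without HH and 6 without PF382. Outside the list, the zinc finger gene ZNF365 was at 0.163, 1.37, 1.35 and 0.348 CPM untreated and at 1.14, 7.85, 9.63 and 3.79 CPM treated and rose by 2.86 ± 0.30 (adjusted p = 1e-05) in each line.

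Among immune ligands and receptors, CD274, which encodes PD-L1, the ligand of the inhibitory receptor PD-1, was at 0.408, 0.171, 0.131 and 0.154 CPM untreated and at 1.56, 1.45, 1.74 and 0.68 CPM treated. It rose by 2.63 ± 0.43 (adjusted p = 0.000919), and each treated library was above each untreated one. Of 36 tested checkpoint and costimulatory genes of 40, 4 were higher and 1 lower, beside 4.4% and 2.6% of all genes. IDO1, a tryptophan-degrading enzyme, had 136 of its 138 treated counts in TLOm1, and neither DESeq2 nor limma-voom called it. TNFRSF14, which encodes the receptor HVEM, was at 8.49, 81.6, 68.7 and 68.9 CPM untreated and at 4.08, 47.7, 31.1 and 38 CPM treated and fell by 0.95 ± 0.15 (adjusted p = 0.000851). PDCD1, which encodes PD-1, was at 7.27, 1.11, 0.654 and 0 CPM untreated and at 3.24, 9.58, 5.26 and 0.179 CPM treated, a difference of 1.3 ± 0.76 (adjusted p = 0.323) that was not called.

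Interferon-stimulated genes had 3 higher and 0 lower of 55, a share near the 4.4% of all genes, with a median of 0.34. Of the 55 estimates 46 were positive and 9 negative. The median within a line was 0.23, 0.26, 0.22 and 0.28, beside 0.011, 0, 0 and 0 for all genes. IFI6, an interferon-induced mitochondrial protein, was at 14.8, 7.85, 9.16 and 13.4 CPM untreated and at 33, 27.9, 21.7 and 25.9 CPM treated. It rose by 1.27 ± 0.20 (adjusted p = 0.0007), and the groups did not overlap. OAS3, which makes 2-5A after binding double-stranded RNA, rose by 0.96 ± 0.21 (adjusted p = 0.00887), a call that ended without PF382 or TLOm1. Of 28 tested MHC class I and peptide-loading genes, 4 were higher and 0 lower, beside 4.4% and 2.6% of all genes. HLA-B was not called, at 1.04 ± 0.35 (adjusted p = 0.0772). None of the 19 MHC class II genes was called. HLA-DRA, the alpha chain of HLA-DR, was at 0.531, 1789, 567 and 6.92 CPM untreated and at 0.914, 1895, 654 and 57.2 CPM treated, a difference of 0.82 ± 0.36 (adjusted p = 0.181).

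Cytokines and chemokines had 5 higher and 2 lower of 34 tested, beside 4.4% and 2.6% of all genes, with a median of 0.49. IL26, a cytokine of helper T cells, had 4, 1, 3 and 0 counts untreated and 67, 6, 37 and 1 counts treated and rose by 3.60 ± 0.94 (adjusted p = 0.0219). LIF, a cytokine of the interleukin 6 family, was at 0.0408, 0.0427, 0 and 8.19 CPM untreated and at 1.22, 0.0403, 1.19 and 23.9 CPM treated, a change of 2.49 ± 0.59 (adjusted p = 0.0132). CCL3, a chemokine for monocytes, was at 0, 30, 11.6 and 0 CPM untreated and at 0, 15.1, 1.44 and 0 CPM treated, a change of -1.71 ± 0.40 (adjusted p = 0.0182). These 3 calls, like most of the list, ended without PF382 or HH, with 1 and 0 called. Among 44 T-cell receptor and identity genes 3 were higher and 2 lower, near the 4.4% and 2.6% of all genes. TBX21, the regulator of type 1 helper and cytotoxic T cells, was at 0.163, 0, 0 and 0.618 CPM untreated and at 2.1, 1.17, 1.24 and 3.04 CPM treated and rose by 3.85 ± 0.80 (adjusted p = 0.00604), with its call ending without TLOm1. Cytotoxic and natural killer genes had 3 higher and 0 lower of 16, beside the same shares of all genes. GNLY, which encodes granulysin, was at 0.163, 0.213, 0.174 and 14.2 CPM untreated and at 1.18, 1.17, 0.149 and 76.8 CPM treated, a change of 2.27 ± 0.49 (adjusted p = 0.0075) in which HH did not share and whose call ended without H9.

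**Figure D2:**
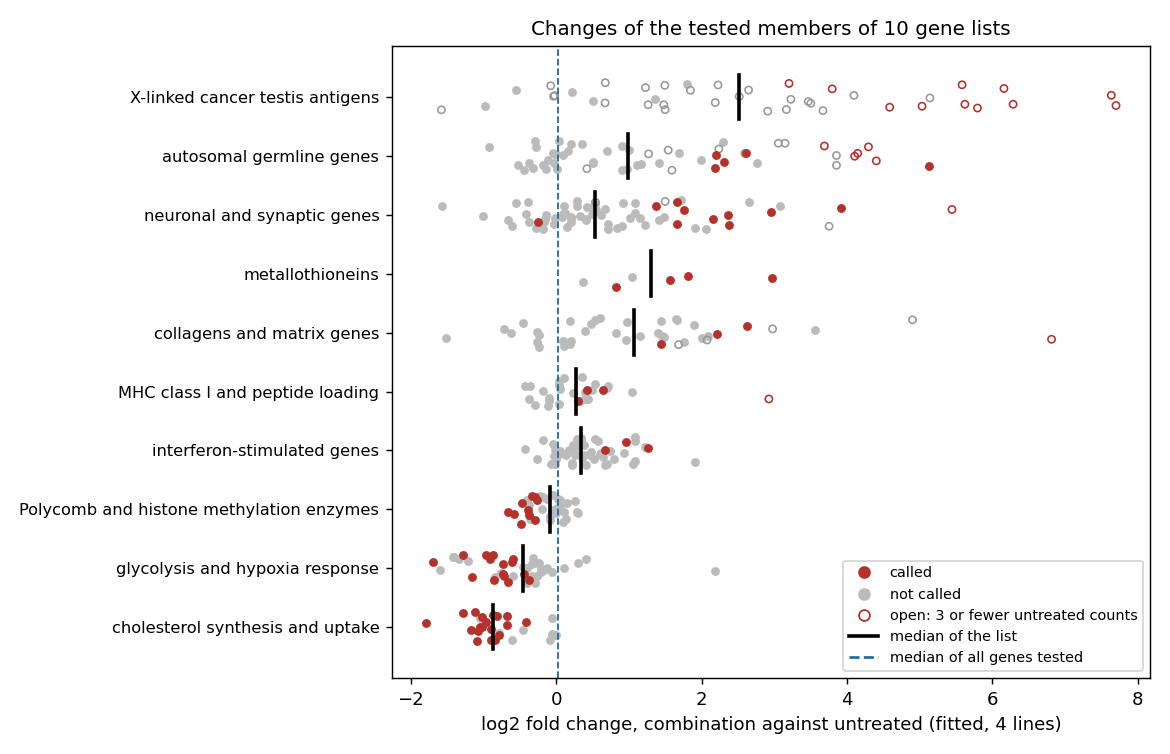
Fitted log2 fold change of each tested member of 10 gene lists, combination against untreated, with called members in red and the list median as a black bar. Open points had 3 or fewer counts over the untreated libraries, so their fitted size depends on the prior count. All 27 cholesterol genes lie below 0.

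Cholesterol synthesis and uptake had the most members called lower of the lists. Its enzymes are switched on together by the transcription factor SREBP2 when sterols are low. Of 27 tested genes of 28, 19 were lower and 0 higher, 18 of them in 4 of 4 lines, where 2.6% of all genes were lower. In this fit the 27 estimates were negative, with a median of -0.87. Among them ABCA1, a sterol exporter that was not called at -1.05 ± 1.01 (adjusted p = 0.588), was near 0 counts in 3 lines and turned positive with DESeq2 and without PF382. LSS, lanosterol synthase, was at 123, 209.5, 761 and 259.6 CPM untreated and at 64.4, 121, 326 and 118 CPM treated. It fell by 1.02 ± 0.12 (adjusted p = 5.17e-05) in each line, although the untreated lines differed from each other by more. HMGCS1, which makes HMG-CoA for the pathway, was at 219, 292, 635 and 414 CPM untreated and at 65.2, 172, 73.3 and 154 CPM treated. It fell by 1.79 ± 0.33 (adjusted p = 0.00219), and the groups did not overlap. INSIG1, which retains the SREBP activator in the endoplasmic reticulum, was at 474, 965, 507 and 308 CPM untreated and at 176, 458, 169.8 and 149 CPM treated and fell by 1.28 ± 0.22 (adjusted p = 0.0014). FDFT1, squalene synthase, fell by 1.08 ± 0.17 (adjusted p = 0.000851) with no overlap, and MVD, mevalonate decarboxylase, by 1.02 ± 0.16 (adjusted p = 0.000614). The list median within a line was -0.74, -0.56, -1.47 and -0.55. The number called was 13 without HH and 18 or 19 without another line, and in the 8 libraries alone 0 by edgeR and 3 by limma-voom.

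Fatty acid synthesis had 4 members lower and 1 higher of 22, beside 2.6% and 4.4% of all genes, with a median of 0.03. SCD, stearoyl-CoA desaturase, was at 871, 774, 1886 and 1622 CPM untreated and at 247, 515, 510.5 and 887 CPM treated and fell by 1.28 ± 0.20 (adjusted p = 0.000771). ACACA, acetyl-CoA carboxylase, was at 119.7, 223, 219 and 189 CPM untreated and at 82.8, 147, 142 and 128 CPM treated and fell by 0.58 ± 0.06 (adjusted p = 1e-05), by nearly the same amount in each line. FASN, the fatty acid synthase, fell by 0.54 ± 0.10 (adjusted p = 0.00212), and ACLY, ATP citrate lyase, by 0.48 ± 0.08 (adjusted p = 0.000851). LINC00263, a noncoding gene that neighbours SCD in RefSeq's GRCh38.p14 table, was at 24.6, 31, 40.4 and 17.5 CPM untreated and at 7.77, 16.7, 10 and 6.41 CPM treated. It fell by 1.48 ± 0.19 (adjusted p = 0.000152), and each treated library was below each untreated one. LMF1, a lipase maturation factor, was at 8.04, 16.6, 6.33 and 7.26 CPM untreated and at 3.81, 7.29, 1.94 and 1.57 CPM treated and fell by 1.51 ± 0.21 (adjusted p = 0.000338).

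Glycolysis and hypoxia genes had 15 lower and 0 higher of 43, beside 2.6% and 4.4% of all genes. Of the 15, 6 were lower in 4 of 4 lines, and the list had a median of -0.46. The median within a line was -1.11, 0.16, -0.64 and -0.60, so TLOm1 stood apart. GPI, glucose-6-phosphate isomerase, was at 773, 522, 965 and 1713 CPM untreated and at 268, 477, 569.9 and 793 CPM treated and fell by 0.91 ± 0.18 (adjusted p = 0.00468), least in TLOm1. ALDOC, an aldolase isoform, was at 89.3, 20.6, 408 and 380.2 CPM untreated and at 17.6, 17.8, 84.9 and 109 CPM treated and fell by 1.70 ± 0.41 (adjusted p = 0.0148). Both calls ended without PF382 and without HH. Of the list, 0 were called without either of these lines and 25 without TLOm1.

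The ALDOC promoter is shown for ACGTG, the core letters of the hypoxia response element, searched on both strands and in capitals. A CACGTG run is read once on each strand. The window is chr17:28576846-28577145 on the minus strand.
ALDOC: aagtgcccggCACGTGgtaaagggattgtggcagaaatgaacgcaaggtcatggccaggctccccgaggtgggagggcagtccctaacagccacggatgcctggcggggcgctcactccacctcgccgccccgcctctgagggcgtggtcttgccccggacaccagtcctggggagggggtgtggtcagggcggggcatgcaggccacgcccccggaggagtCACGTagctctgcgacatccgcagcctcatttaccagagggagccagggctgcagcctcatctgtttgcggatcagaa
ACGTG was in 14 of the 21 promoters of the list's genes called lower (66.7%) and in 43.8% of those of its tested genes. It was in 25.5% of the promoters of all genes called lower, 24.4% of those of all tested genes and 21.4% of all promoters. The list was drawn up for hypoxia response, so its share of ACGTG does not test such a response here. TCACNCCAC, a sterol response element, was in 1 of 19 promoters of cholesterol genes called lower, in 1.12% of those of tested genes and in 1.13% of all. TTCAGCACC, part of the REST element, was in 1 of 6 promoters of neuronal genes called higher, in 0.287% of those of tested genes and in 0.376% of all. The promoters shown were chosen after these matches were seen.

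**Figure D3:**
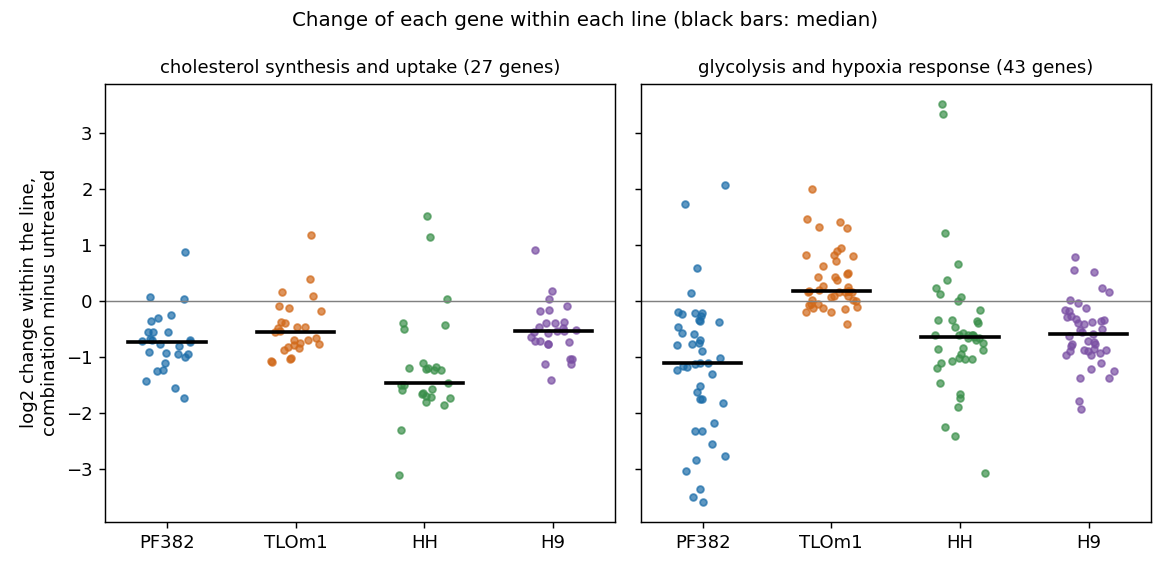
Log2 change of each tested gene within each line (treated minus untreated, 1 library each) for 27 cholesterol and 43 glycolysis genes, with the median as a black bar. Cholesterol medians lie below 0 in each line, and the glycolysis median is at 0.16 in TLOm1.

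Histone methylation enzymes had 10 lower and 0 higher of 36, beside 2.6% and 4.4% of all genes. Of the 10, 8 were lower in 4 of 4 lines, and the list had a median of -0.08. KDM6B, which removes methylation from H3K27, was at 114, 37.1, 40.4 and 93.4 CPM untreated and at 67.9, 28, 26.2 and 63 CPM treated and fell by 0.58 ± 0.10 (adjusted p = 0.00152). KDM4C, a demethylase of H3K9, fell by 0.49 ± 0.10 (adjusted p = 0.00645), and EHMT1, an H3K9 methyltransferase, by 0.47 ± 0.11 (adjusted p = 0.0105), the latter call ending without PF382 or TLOm1. The list had 3 called without PF382. BPTF, a subunit of the remodeler NURF that is outside the list, was at 319, 220, 159.7 and 169 CPM untreated and at 252, 154, 108 and 133 CPM treated and fell by 0.44 ± 0.06 (adjusted p = 0.000338).

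The enzymes the drugs act on were mostly not called. DNMT1 was at 0.11 ± 0.07 (adjusted p = 0.343), and DNMT3A at 0.60 ± 0.42 (adjusted p = 0.432). HDAC1, HDAC2 and HDAC3 were at 0.15 ± 0.06 (adjusted p = 0.117), 0.12 ± 0.10 (adjusted p = 0.505) and 0.10 ± 0.11 (adjusted p = 0.642). UHRF1, which guides DNMT1, was at 0.26 ± 0.13 (adjusted p = 0.234). Of 18 histone deacetylases HDAC7 was the 1 called and fell by 0.46 ± 0.12 (adjusted p = 0.0173), and the call ended without PF382, HH or H9. DNMT3B was at 57.3, 2.82, 0.305 and 56.4 CPM untreated and at 192, 3.5, 3.27 and 143 CPM treated and rose by 1.49 ± 0.37 (adjusted p = 0.0173), with the call ending without PF382 or H9. TET2 fell by 0.43 ± 0.12 (adjusted p = 0.0287) and TET3 by 0.36 ± 0.09 (adjusted p = 0.0212), both calls ending without HH, TET2 also without PF382 or TLOm1 and TET3 without H9. The shares over all genes were 4.4% higher and 2.6% lower. Of 26 genes of azacitidine uptake and nucleotide metabolism 2 were higher and 0 lower, and of 12 efflux transporters 1 was higher and 1 lower. They included SAMHD1, a nucleotide hydrolase, which rose by 0.67 ± 0.17 (adjusted p = 0.0182), a call that ended without PF382, HH or H9, and ABCB1, a drug efflux pump, which went from 2 to 27 counts (ratio 13.2, interval 3.31 to 114). Of these 27 counts 22 were in HH, and the ABCB1 call ended with DESeq2, with limma-voom, with no low-count filter and without PF382, HH or H9.

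Metallothioneins, which bind zinc and copper, had 4 higher and 0 lower of 6 tested, beside 4.4% and 2.6% of all genes, with a median of 1.3. MT1X was at 5.39, 2.43, 5.28 and 6.37 CPM untreated and at 11.1, 4.03, 8.78 and 10.7 CPM treated and rose by 0.82 ± 0.16 (adjusted p = 0.00363), a call that ended without HH. MT2A was at 6.82, 1.67, 34.6 and 31.4 CPM untreated and at 33.4, 7.81, 55.6 and 80.8 CPM treated and rose by 1.56 ± 0.36 (adjusted p = 0.0104), a call that ended without PF382 or H9. The number called was 2 with DESeq2 and 1 without PF382. The MT1X promoter is shown for TGCACNC and TGCGCNC, the letters of metal response elements, on both strands and in capitals. It holds 4. At least 1 was in both promoters matched for called members, in 35.8% of those of tested genes and in 29.6% of all. The window is chr16:56682220-56682519 on the plus strand.
MT1X: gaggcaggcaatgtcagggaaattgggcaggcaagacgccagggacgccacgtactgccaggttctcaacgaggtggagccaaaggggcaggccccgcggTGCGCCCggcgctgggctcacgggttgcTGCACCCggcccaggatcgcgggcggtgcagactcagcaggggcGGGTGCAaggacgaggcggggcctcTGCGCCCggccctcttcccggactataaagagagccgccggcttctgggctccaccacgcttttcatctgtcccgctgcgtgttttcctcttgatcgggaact

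Markers of other cell types moved in both directions. The numbers called in each list stand beside 4.4% of all genes higher and 2.6% lower. KRT8, a keratin of simple epithelia, was at 2.29, 10.8, 0.48 and 0.695 CPM untreated and at 34.7, 118, 0.447 and 8.27 CPM treated, a rise of 3.36 ± 0.46 (adjusted p = 0.00032) in which HH did not share. KRT18, its partner, rose by 3.03 ± 0.56 (adjusted p = 0.00219), a call that ended without H9. Of 11 tested epithelial markers 3 were higher and 1 lower, with a median of 0.45. The lower one was KRT7, another keratin, at 0.286, 33.1, 53.3 and 91.3 CPM untreated and at 0.191, 17.1, 17.6 and 74.2 CPM treated, which fell by 0.92 ± 0.24 (adjusted p = 0.021) in each line, a call that ended with limma-voom and without TLOm1, HH or H9. EPCAM, a defining marker, was at 0, 0, 0 and 95.9 CPM untreated and at 0.267, 0.0805, 0 and 116 CPM treated. Fibroblast markers had a median of 1.68, with 11 of 12 estimates positive and 1 called, COL1A1, at 2.62 ± 0.60 (adjusted p = 0.0105), which ended without PF382 or HH. Of 40 collagen and matrix genes 4 were higher and 0 lower, and FN1, fibronectin, was at 3.51, 14.3, 1.79 and 0.888 CPM untreated and at 12.7, 27.3, 6.45 and 2.11 CPM treated and rose by 1.44 ± 0.24 (adjusted p = 0.000992). Of 8 tested myeloid markers 2 were higher, among them MPO, with 48 of its 50 treated counts in PF382, which DESeq2 did not call. B-cell markers had 1 of 12 called, erythroid 0 of 3 and T-cell markers 1 of 12. That 1 was LAT, an adaptor of the T-cell receptor, which rose by 0.68 ± 0.18 (adjusted p = 0.0274), ending without PF382, TLOm1 or HH. Summed over a list, epithelial markers went from 18.2 to 83.6 CPM in PF382, 91.9 to 192 in TLOm1 and 257 to 295 in H9, but from 58.9 to 22.2 in HH. Fibroblast markers went from 278 to 398 CPM in PF382, 2420 to 3030 in TLOm1 and 1040 to 1200 in H9, but from 1990 to 1550 in HH. These sums were largely VIM, vimentin, at 262, 2300, 1110 and 913 CPM untreated and at 336, 2890, 706 and 1080 CPM treated. In HH COL6A3 went from 880 to 834 CPM, while COL1A1 went from 0.131 to 1.44 CPM. Myeloid markers went from 137 to 126, 6.32 to 15.8, 5.85 to 8.49 and 54 to 50.9 CPM, and B-cell markers from 50.9 to 43.3, 8.62 to 18.3, 431 to 439 and 127 to 133 CPM. Single genes weighed on these sums too, such as AIF1 in PF382 (134 to 117 CPM) and BLK in HH (429 to 434 CPM). The part of these marker genes in the other results was not tested.

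Of 40 pro-apoptotic genes 3 were higher and 0 lower, beside 4.4% and 2.6% of all genes: BAK1, a pore-forming effector, rose by 0.32 ± 0.07 (adjusted p = 0.00521), PMAIP1, which encodes NOXA, by 0.69 ± 0.20 (adjusted p = 0.0369), and DFNA5, gasdermin E, by 1.87 ± 0.52 (adjusted p = 0.0307). Each of these calls ended without TLOm1 and without H9. CDKN1A, which encodes the cell cycle inhibitor p21, was at 2.08, 169, 10.2 and 2.7 CPM untreated and at 10.7, 211, 10.3 and 5.48 CPM treated, a difference of 0.78 ± 0.31 (adjusted p = 0.129) that was not called. Of 59 cell cycle genes 1 was higher and 2 lower, with a median of 0.05. MYC was not called, at -0.13 ± 0.12 (adjusted p = 0.552). Histone genes had 2 higher and 0 lower of 62, with a median of -0.28. H2AFX, the variant phosphorylated at DNA breaks, rose by 0.39 ± 0.07 (adjusted p = 0.00281), a call that ended without HH. H1F0, a linker histone, was at 0.41 ± 0.52 (adjusted p = 0.704).

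Other lists held 0 to 3 calls, beside 4.4% of all genes higher and 2.6% lower. Sensors of nucleic acids had 1 higher and 1 lower of 27, anti-apoptotic genes 1 higher of 12, homeobox cluster genes 3 of 34, and retroviral and Gag-derived genes 1 of 21. ATF4 and NF-kB lists each had 1 lower, of 34 and 28. MYC and ribosome biogenesis (33 genes), imprinted genes (22) and inhibitors of cyclin-dependent kinases (7) had 0 called.

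Against 125 nM azacitidine alone, the combination had 47 genes higher and 11 lower, 0.264% and 0.0618%. NRGN was higher by 1.67 ± 0.22 (adjusted p = 0.00142), ZNF365 by 1.67 ± 0.27 (adjusted p = 0.0113) and NXPH4 by 1.59 ± 0.29 (adjusted p = 0.019). MAP2 was higher by 2.37 ± 0.48 (adjusted p = 0.0396), 1 of 3 neuronal genes called of 66. CD274 was higher by 1.80 ± 0.40 (adjusted p = 0.0492) and TEX19 by 1.97 ± 0.36 (adjusted p = 0.019). LSS was at -0.57 ± 0.12 (adjusted p = 0.041) and ACACA at -0.33 ± 0.06 (adjusted p = 0.019), both lower. Of 41 X-linked antigens 0 were called. Leaving out 1 line gave 2 calls without HH, 3 without PF382, 16 without TLOm1 and 32 without H9. The libraries of these groups alone gave 0 calls, while DESeq2 gave 193 and limma-voom 222.

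Against romidepsin alone, 181 genes were higher and 74 lower, 1.02% and 0.416%. Romidepsin alone was at 1 nM in HH, below the 1.25 nM of its combination. BRDT was higher by 5.40 ± 0.56 (adjusted p = 2.71e-05) and KRT8 by 3.19 ± 0.45 (adjusted p = 0.00146). Of the X-linked antigens 8 were higher, and of the 27 cholesterol genes 8 were lower. HMGCS1 was at -1.40 ± 0.32 (adjusted p = 0.0301), LINC00263 at -1.34 ± 0.19 (adjusted p = 0.00146) and LMF1 at -1.37 ± 0.21 (adjusted p = 0.00239), each lower. NXPH4 was not called, at 0.92 ± 0.29 (adjusted p = 0.118). Leaving out 1 line gave 38 calls without HH, 91 without H9, 95 without TLOm1 and 115 without PF382. The libraries of these groups alone gave 12 calls and DESeq2 433.

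**Figure D4:**
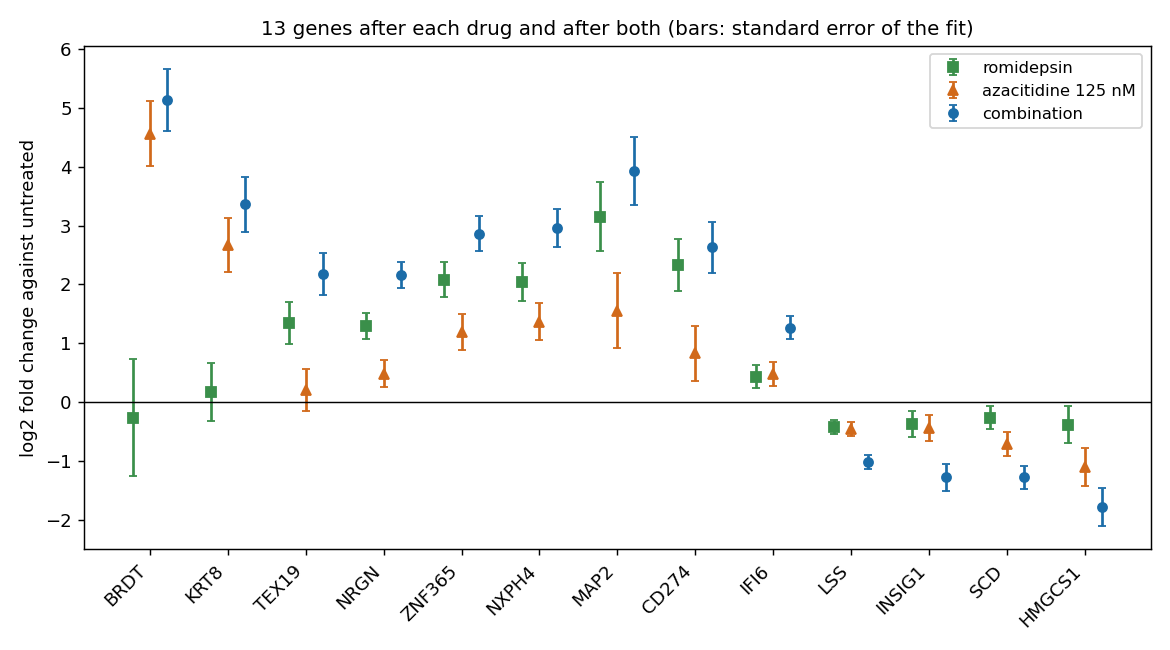
Fitted log2 fold change against untreated of 13 genes after romidepsin, azacitidine at 125 nM and both, with standard errors. The 3 comparisons share their untreated libraries, and romidepsin alone in HH was below its dose in the combination. BRDT was at -0.26 after romidepsin, 4.56 after azacitidine and 5.13 after both.

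Against the same untreated libraries, which the 3 comparisons share, the single drugs gave these values, with romidepsin alone in HH below its dose in the combination. BRDT was at 4.56 ± 0.55 after azacitidine and -0.26 ± 1.00 after romidepsin. KRT8 was at 2.67 ± 0.46 and 0.17 ± 0.49. ZNF365 was at 1.19 ± 0.31 and 2.08 ± 0.30, and NRGN at 0.49 ± 0.22 and 1.29 ± 0.22. CD274 was at 0.83 ± 0.47 after azacitidine and 2.33 ± 0.44 after romidepsin. HMGCS1 was at -1.10 ± 0.32 and -0.39 ± 0.31, and LSS at -0.45 ± 0.12 and -0.42 ± 0.12.

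No gene was called when the combined change was set against both single-drug changes added on the log2 scale, with 0 higher (0%) and 0 lower (0%) by edgeR and 139 of 17801 (0.781%) at an unadjusted p under 0.05. DESeq2 and limma-voom also called 0, with 92 and 168 at an unadjusted p under 0.05. The departure was 0.38 ± 0.31 (adjusted p = 1) for NRGN and -0.15 ± 0.17 (adjusted p = 1) for LSS. With no departures, about 5% of genes would fall under an unadjusted p of 0.05. These p-values ran higher than that, so the low share does not show that departures are rare. Missing the threshold does not show that the drugs add. In HH romidepsin was at 1 nM alone and 1.25 nM in the combination, so a dose difference enters the departure there.

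With azacitidine at 250 in place of 125 nM, 5 genes were higher (0.0281%) and 0 lower (0%). MAGEA4 was higher by 3.69 ± 0.44 (adjusted p = 0.000432), BRDT by 2.25 ± 0.31 (adjusted p = 0.00199), and PNMA5, PAGE5 and DCAF4L1 by 3.01 ± 0.47, 2.85 ± 0.49 and 1.89 ± 0.29. MAGEA4 had 13 counts over the 4 libraries at 125 nM and 1 over the untreated ones (ratio 12.7, interval 1.9 to 539). Leaving out HH or H9 gave 1 call each, TLOm1 4 and PF382 6, DESeq2 9 and the libraries of these groups alone 87.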

How the data were processed

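RNA was sequenced from 4 cell lines under 10 conditions in all, 32 libraries. Each library has a deposited table of whole-number counts by gene symbol, made by the authors. Counter, annotation and strand use were not given in the sources used here. STAR, DESeq2, limma and GRCh37.p2 stand in the submitters' processing notes without versions. The labels name both polyA RNA and ribosomal RNA depletion.

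Genes with at least 10 counts in enough libraries and 15 in total (filterByExpr) were tested: 17801 of 25559. Counts were TMM-scaled and fitted with edgeR 4.0.16 (R 4.3.3), quasi-likelihood F test, 10 groups plus cell line, on all 32 libraries, with Benjamini-Hochberg adjustment. The block is the cell line: same-line deviations correlated at 0.9 to 0.929, and at most 0.117 across lines. DESeq2 1.42.0 and limma 3.58.1 were alternatives, as were other scalings, filters, fewer libraries and leaving out each line. The main comparison was tested on simulated data: at a nominal 5%, 5 of 180 calls were false with trended dispersions (17514 genes) and 19 of 185, or 10.3%, with per-gene dispersions (17504 genes), so false calls can exceed the nominal share. Nothing says that the libraries of a line came from separate cultures. The line term removes differences in level between lines, so p-values measure the spread of libraries around the group and line terms, pooled over all treatments. Counting intervals (95%) and floors cover counting error only.

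Named genes are the 12 largest changes each way among calls with 1 sign in 4 of 4 lines, the 4 smallest p each way, up to 4 called and 2 uncalled members per list, up to 5 each way in the other comparisons, and some set by name, and the text prints part of them. Some results are not reported here. A line with 0 counts in both libraries has no sign, a reading settled after output was seen. Members and lists were chosen with earlier results of these data known. Of the tested symbols, 90.5% matched RefSeq's GRCh38.p14 table, used for promoters and neighbours only.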

Additional observations from a re-analysis of the deposited data

Results flagged for a closer look

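In 209 genes, the change in 1 line lay far from the other 3 for 14. Chance flags about 1 in 20 of genes picked without regard to their changes. The 209 were named partly by their changes, so that rate does not apply to them. Log2 changes follow, with the range of the other lines. PF382 stood apart for HLA-B (2.56 against 0.4 to 0.68), MPO (4.52 against 0 to 0.67), MT1X (1.03 against 0.71 to 0.74), SYCP1 (2.22 against 0) and MAGEL2 (1.25 against 0). For SYCP1 and MAGEL2 the other lines tied at 0, so any change in PF382 would have been flagged. They had 0 untreated counts and 8 and 3 treated ones, and their sizes depend on the prior count. So does the size for KIR3DX1, with 0 untreated and 13 treated counts. TLOm1 stood apart for IL17A (3.71 against 0 to 0.07), KIR3DX1 (2.55 against 0.52 to 0.67), KDM5B (-2.62 against -0.37 to 0.02) and KLF1 (-0.08 against 0.81 to 0.91). HH stood apart for DNMT3A (2.44 against 0.06 to 0.31), H19 (4.92 against 0 to 0.54), CD68 (1.5 against 0.69 to 0.76), GNLY (-0.15 against 2.08 to 2.43) and KRT8 (-0.09 against 3.42 to 3.88).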

How the results depend on the processing

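The count against untreated (1246) stayed within 1.5 times under other scalings, filters, DESeq2 (1493) and limma-voom (1486). In the main fit 62.9% of calls were higher, and under these settings 59.5% (DESeq2) to 68.9% (upper-quartile scaling). Without the replicate block it was 0, and with only the 8 libraries 0 by edgeR and 120 by limma-voom. With 16 libraries, the 8 and those of romidepsin alone and 125 nM azacitidine alone, it was 1375. Leaving out 1 line gave 470 to 889. Against azacitidine (58) it was 193 with DESeq2, 222 with limma-voom, 0 with only the libraries compared, 0 without the block and 2 to 32 without a line. Against romidepsin (255) it was 433 with DESeq2, 12 with only the libraries compared, 1 without the block and 38 to 115 without a line. At 250 against 125 nM (5) it was 9 with DESeq2, 87 with only the libraries compared, 0 without the block and 1 to 6 without a line. The departure count was 0 in each. All 123 called genes named by the rule lost their call without the block. Some log2 changes reversed, all of genes not called against untreated. ABCA1 (-1.05, of the cholesterol list) turned to 1.347 with DESeq2 and ran from -1.277 to 1.291 (without PF382) when a line was left out. Without the block H1F0 was at -0.006 and TNFRSF10D at -0.036. With a line left out TNFRSF10D ran from -0.173 (without HH) to 0.992, DCAF4L1 from -0.025 (without PF382) to 0.675, and PAGE5 from -0.232 (without PF382) to 3.319 (without H9, where it was called). The cause was not tested. Depth limits genes near 3 counts, where fitted sizes depend on the prior count.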
